A study of Mus musculus with 20 samples.

Results

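The choroid plexus genes described here are *Ttr*, *Folr1*, *Kl*, *Kcnj13*, *Clic6* and *Otx2*, 6 of the 35580 genes that could be read from the RNA-seq of hippocampus and neocortex in miR-324-null and WT mice. They were chosen by name as markers of the choroid plexus epithelium, with earlier results of these data known, and the estimated counts and TPM of all their annotated transcripts were summed per gene in each of the 20 samples. Their levels by sample are part of that choice and are given as a description without a test. The rule did not use the fitted differences between genotypes and between tissues, but their p values come from the same samples whose earlier results were known.

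The choroid plexus is a folded sheet of epithelium on a core of vessels that hangs in the ventricles of the brain and secretes most of the cerebrospinal fluid. Its cells pump ions and bicarbonate across their apical membrane, let water follow, and carry hormones, vitamins and proteins from the blood into the fluid. The plexus of the lateral ventricle is attached along the edge of the hippocampus, while the neocortex is separated from the ventricle by white matter and has no such attachment over most of its extent. *Ttr* encodes transthyretin, the carrier of thyroxine and of the retinol-binding protein, which this epithelium makes in very large amounts. *Folr1* encodes folate receptor alpha, which takes folate into the fluid, and *Kl* encodes klotho, a co-receptor for the hormone FGF23 that is also found in neurons. *Kcnj13* encodes an inward-rectifier potassium channel and *Clic6* a member of the chloride intracellular channel family. *Otx2* encodes a homeobox transcription factor needed to form the plexus.

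The mice were C57BL/6J males at an age of 13.5 months. Each of the 4 groups, hippocampus or neocortex of WT or miR-324-null mice, has 5 samples, numbered 1 to 5 in the labels. The null mice lack *Mir324* in every cell, through a deletion made with Cas9 in zygotes of mixed C57BL/6 and CBA/ca origin. Founders were crossed back to C57BL/6J and heterozygous offspring intercrossed, after which WT and null animals were kept as separate lines, so that line and genotype cannot be told apart. Whether a hippocampus and a neocortex with the same number came from the same mouse was not given in the sources used here. The samples held 12752439 to 19617765 estimated counts. *Mir324* itself was not among the genes read, so the genotype labels could not be checked with it. The tissue labels were checked with genes of the hippocampus. All 5 genes used to mark the hippocampus (*Prox1*, *Fibcd1*, *Spink8*, *Lct* and *Wfs1*) were higher there than in the neocortex of WT mice (edgeR, median log2 fold change, or logFC, 4.51).

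All 6 choroid plexus genes were the highest of their group in the same 3 libraries, sample 3 of WT hippocampus, sample 5 of miR-324-null hippocampus and sample 2 of miR-324-null neocortex. The step over the median of the other 4 samples was smallest for *Clic6* in the neocortex library, at 2.79-fold. No sample of WT neocortex was the highest for all 6. There sample 3 was the highest for 4 of them, by at most 2.29-fold, and the largest step was that of *Folr1* in sample 4, at 3.80-fold and 11 counts. These 3 libraries carry different numbers in the labels and both genotypes. Results that rest on them are given with and without them, except for correlations over all neocortex samples. In bulk tissue, more cells of a type and more RNA per cell cannot be told apart.

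*Ttr* had the highest level of the 6 genes per transcript length. In WT hippocampus it stood at 20.1, 54.9, 4346, 81.0 and 26.7 CPM in samples 1 to 5. CPM are counts scaled to library size with TMM. In miR-324-null hippocampus it stood at 87.5, 109.9, 25.9, 33.8 and 3780 CPM. The neocortex had 13.7, 45.9, 31.3, 16.6 and 10.1 CPM in WT samples and 50.3, 757, 24.9, 48.7 and 17.4 CPM in miR-324-null samples. The high library of WT hippocampus was 107-fold above the median of the other 4 samples of its group, that of miR-324-null hippocampus 62.3-fold and that of miR-324-null neocortex 20.6-fold, while the highest WT neocortex sample was 3.03-fold above the others. In WT hippocampus 3, the 66519 estimated counts of this single gene made up 0.434% of the library, against 0.00808% in the next highest sample of that group. Apart from the 3 high libraries, the 4 groups overlapped in *Ttr*.

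**Figure D1:**
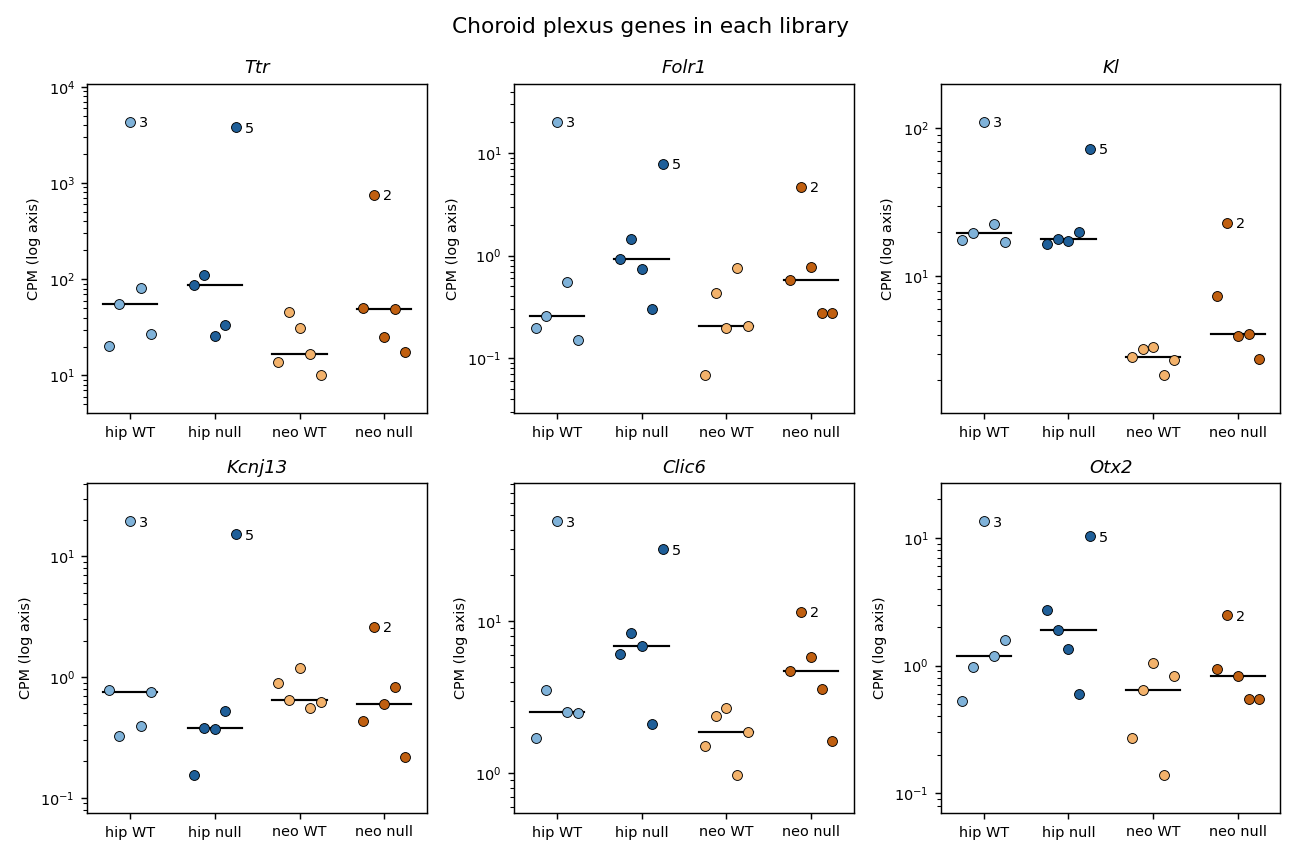
Level of the 6 choroid plexus genes in each of the 20 libraries, in CPM on a log axis, for hippocampus (hip) and neocortex (neo) of WT and miR-324-null (null) mice. Points are samples in label order from left to right, bars are group medians (n = 5), and the numbers name the 3 libraries of highest *Ttr*; in every panel hippocampus WT 3 and hippocampus null 5 lie above the other samples of their groups, as does neocortex null 2.

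*Folr1* was near the limit of detection in most samples and high in the same 3. It had 3, 4, 312, 7 and 2 estimated counts in WT hippocampus and 12, 19, 12, 4 and 117 in miR-324-null hippocampus. In the neocortex it had 1, 6, 3, 11 and 3 counts in WT and 8, 93, 13, 5 and 5 in miR-324-null samples. Values of 3 counts or fewer are at the floor of what these libraries can show, and apart from the high libraries no *Folr1* value was above 19 counts.

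*Kcnj13* had 12, 5, 298, 5 and 10 estimated counts in WT hippocampus and 2, 5, 6, 7 and 225 in miR-324-null hippocampus. In WT neocortex it had 8 to 18 counts, and in miR-324-null neocortex 6, 52, 10, 15 and 4. Outside the high libraries its CPM were no higher in hippocampus (at most 0.786) than in neocortex (at most 1.18), so the order of the tissues for this channel was set by the high libraries.

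*Clic6* had a measurable level in every sample. It stood at 1.70, 3.51, 45.3, 2.53 and 2.48 CPM in WT hippocampus and at 6.12, 8.33, 6.91, 2.09 and 29.7 CPM in miR-324-null hippocampus. The neocortex had 1.5, 2.36, 2.70, 0.974 and 1.85 CPM in WT and 4.71, 11.5, 5.82, 3.56 and 1.64 CPM in miR-324-null samples. The high library of miR-324-null hippocampus was 4.56-fold above the median of the other 4, a smaller step than the 18.1-fold of WT hippocampus, and 3 of the other 4 miR-324-null hippocampus samples lay above every WT sample apart from WT 3.

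*Otx2* followed the same libraries at a lower level, with 206 estimated counts in WT hippocampus 3, 152 in miR-324-null hippocampus 5 and 49 in miR-324-null neocortex 2. The other samples had 8 to 21 counts in WT hippocampus and 8 to 35 in miR-324-null hippocampus. In the neocortex they had 2 to 16 in WT and 10 to 14 in miR-324-null samples. The step was 12.5-fold in WT hippocampus, 6.30-fold in miR-324-null hippocampus and 3.58-fold in miR-324-null neocortex.

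*Kl* differed from the other 5 genes in that its remaining samples were also separated by tissue. It stood at 17.6, 19.6, 110.5, 22.5 and 17.1 CPM in WT hippocampus and at 16.4, 18, 17.3, 19.9 and 72.3 CPM in miR-324-null hippocampus. The neocortex had 2.86, 3.23, 3.35, 2.16 and 2.75 CPM in WT and 7.39, 23.0, 3.98, 4.05 and 2.78 CPM in miR-324-null samples. Without the high libraries every hippocampus sample had at least 16.4 CPM and every neocortex sample at most 7.39 CPM. The steps in the high libraries were 5.94-fold, 4.10-fold and 5.74-fold over the other samples of the same group.

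Per transcript length, as TPM, the order of the 6 genes in WT hippocampus 3 was *Ttr* (6806 TPM), *Folr1* (54.0), *Kl* (35.9), *Kcnj13* (29.0), *Clic6* (20.4) and *Otx2* (13.3). In miR-324-null hippocampus 5 it was *Ttr* (5924 TPM), *Kl* (23.4), *Folr1* (23.2), *Kcnj13* (22.8), *Clic6* (13.3) and *Otx2* (8.95). In miR-324-null neocortex 2 it was *Ttr* (1250 TPM), *Folr1* (14.8), *Kl* (7.88), *Clic6* (5.76), *Kcnj13* (4.14) and *Otx2* (2.35). *Ttr* led and *Otx2* closed the order in all 3. As group medians in WT hippocampus, *Ttr* (85.1 TPM) was followed by *Kl* (6.30), *Kcnj13* (1.59), *Clic6* (1.56), *Otx2* (1.01) and *Folr1* (0.746). The last 4 of these overlapped in range, and *Folr1*, which came next to *Ttr* in WT hippocampus 3, closed the order by median.

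Counts of the other genes were set against those of *Ttr* within each high library. Intervals are exact binomial 95% intervals and cover counting error only. Whether they overlap describes single libraries and tests no difference between groups. *Kcnj13* had 4.48 (3.98 to 5.02), 4.04 (3.53 to 4.60) and 3.46 (2.58 to 4.54) counts per 1000 *Ttr* counts in WT hippocampus 3, miR-324-null hippocampus 5 and miR-324-null neocortex 2. *Otx2* had 3.10 (2.69 to 3.55), 2.73 (2.31 to 3.20) and 3.26 (2.41 to 4.32). For both genes the 3 intervals overlapped. *Folr1* had 4.69 (4.18 to 5.24), 2.10 (1.74 to 2.52) and 6.19 (5.00 to 7.59), so that the interval of miR-324-null hippocampus 5 lay below the other 2. *Clic6* had 10.4 (9.67 to 11.2), 7.86 (7.14 to 8.63) and 15.2 (13.3 to 17.4), and *Kl* had 25.4 (24.2 to 26.7), 19.1 (17.98 to 20.3) and 30.4 (27.7 to 33.4). For *Clic6* and *Kl* the 3 intervals were all apart, but their counts include the level seen in the other samples of each group. In the other 17 libraries the counts per 1000 *Ttr* counts had a median of 9.77 for *Folr1*, 15.5 for *Kcnj13*, 19.9 for *Otx2*, 84.7 for *Clic6* and 188 for *Kl*.

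**Figure D2:**
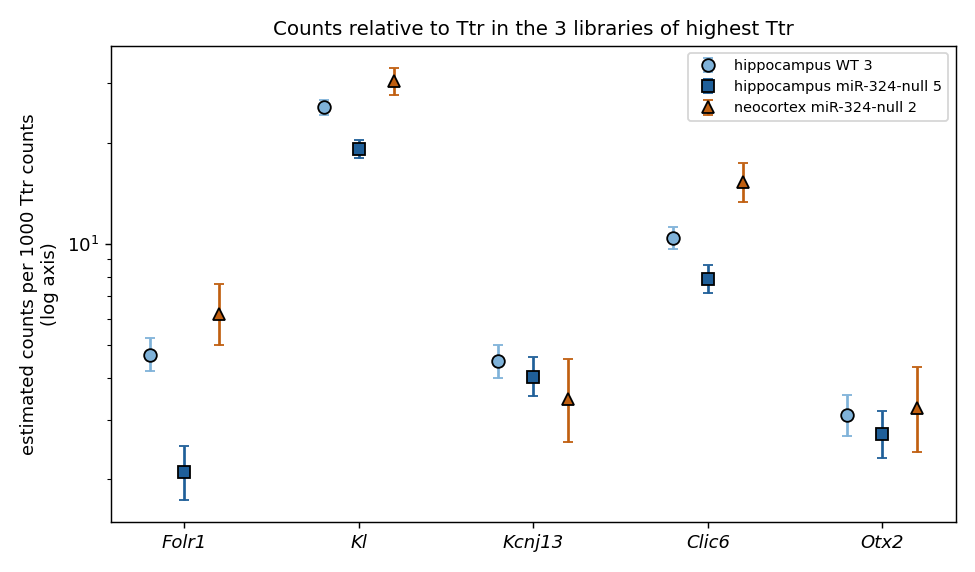
Estimated counts of 5 choroid plexus genes per 1000 *Ttr* counts in the 3 libraries of highest *Ttr*, on a log axis, with exact binomial 95% intervals that cover counting error only. *Kcnj13* and *Otx2* overlap between the 3 libraries, whereas the *Folr1* value of 2.10 in miR-324-null hippocampus 5 lies below the 4.69 and 6.19 of the other 2.

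*Kl* and *Clic6* have counts in the other samples of their groups, so the excess in TPM over the median of those samples was also set against the excess of *Ttr*. Per 1000 TPM of *Ttr* excess, that of *Kl* was 4.44 TPM in WT hippocampus 3, 3.05 in miR-324-null hippocampus 5 and 5.45 in miR-324-null neocortex 2. *Clic6* had 2.82, 1.68 and 3.23 TPM, and *Folr1* 7.91, 3.48 and 10.9 TPM. *Kcnj13* had 4.10, 3.79 and 2.79 TPM, and *Otx2* 1.84, 1.19 and 1.26 TPM. The lowest value of *Kl*, *Clic6*, *Folr1* and *Otx2* was that of miR-324-null hippocampus 5, and the lowest of *Kcnj13* that of the neocortex library.

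The transcripts behind these sums differed in how clear they were. *Ttr* has 1 annotated transcript. Of the 2 transcripts of *Kl*, *Kcnj13* and *Clic6*, Kl-201 held 98.3% of the TPM of the gene over the hippocampus samples, Kcnj13-201 94.2% and Clic6-201 92.1%. *Otx2* has 11 annotated transcripts, of which Otx2-201 held 64.5% of its TPM in hippocampus and 49.99% in neocortex. *Folr1* has 16. Its leading transcript was one of 960 bases in both high hippocampus libraries, with 166 of 312 counts in WT 3 and 79.5 of 117 in miR-324-null 5, and one of 1039 bases in miR-324-null neocortex 2, with 66.6 of 93 counts against 6.86 for the first. The division of reads among overlapping *Folr1* transcripts is an estimate, so only the sum over the gene is compared here.

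In GRCm38, *Folr1* lies on chromosome 7 (101858331 to 101870788, minus strand), *Kl* on chromosome 5 (150952607 to 150993817, plus strand), *Kcnj13* on chromosome 1 (87386363 to 87394729, minus strand), *Clic6* on chromosome 16 (92485736 to 92541243, plus strand) and *Otx2* on chromosome 14 (48657677 to 48673819, minus strand). *Kcnj13* lies within *Gigyf2* on the opposite strand, *Folr1* overlaps *Anapc15* and *Otx2* overlaps *Otx2os1* on the opposite strand, and *Clic6* and *Otx2* overlap *2410124H12Rik* and *Gm49154* on the same strand. The libraries are stranded, but whether the counting used the strand was not given in the sources used here, so low counts of these genes are uncertain. *Kl* and *Ttr* overlap no other annotated gene.

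OTX2 belongs to the homeobox factors that bind the motif TAATCC, or GGATTA on the other strand, and the members were searched for it because they include the factor itself. RefSeq promoter windows (250 bases before to 50 after a start) were at hand for *Kl*, *Kcnj13* and *Otx2* among the 6, with 6 windows in all. The motif was in 1 of them, a window of *Otx2*, in 5 of 41 windows of 29 further choroid plexus genes, and in 7.06% of all 32851 windows. All 6 matches are shown with 30 bases around the motif, from RefSeq on GRCm38.p6. Capitals mark the motif, and each line is written 5′ to 3′ on the strand of the gene.
Otx2, chr14:48665303-48665332, minus strand: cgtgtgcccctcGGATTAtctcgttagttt
Abca4, chr3:122044390-122044419, plus strand: gtaattagagggGGATTAtgcttgaagggg
Car14, chr3:95904729-95904758, minus strand: atcctgcatgccTAATCCgctatttaagga
Ace, chr11:105967909-105967938, plus strand: ggctgggttttaTAATCCgcagggcggtcg
Vat1l, chr8:114205549-114205578, plus strand: cggctcctctaaGGATTAcggcggaggcgg
Igf2, chr7:142658777-142658806, minus strand: gcctacccaagtGGATTAattatacgcttt
The motif lies 211 bases before the start in *Otx2*, 58 in *Abca4*, 61 in *Car14*, 27 in *Ace* and 79 in *Vat1l*, and follows the start in *Igf2*. A match describes the letters of the window and is no evidence of binding.

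A wider list of 33 genes known from the choroid plexus was high in the same 3 libraries. In WT hippocampus 3, 33 of 33 were the highest of the 5 samples of the group, where 22.2% of all genes tested were, and 28 of 33 were more than 2-fold above the median of the other 4, where 1.7% of all genes were. In miR-324-null hippocampus 5, 32 of 33 were the highest (23.4% of all genes) and 25 exceeded 2-fold (1.5% of all genes). In miR-324-null neocortex 2, 29 of 33 were the highest (20.4% of all genes) and 18 exceeded 2-fold (0.884% of all genes). The shares of all genes are over those that passed the filter on low counts, while the list also includes genes that did not pass. The median difference of the list was 2.94, 2.02 and 1.23 on the log2 CPM scale in the 3 libraries.

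Genes of the list that act in ion and water transport differed in the size of their step. *Slc4a5*, a sodium bicarbonate cotransporter, stood at 26.5 CPM in WT hippocampus 3, 9.76 in miR-324-null hippocampus 5 and 6.00 in miR-324-null neocortex 2, and at no more than 0.797 in any other sample. *Aqp1*, the apical water channel, stood at 20.6, 7.46 and 4.94 CPM in the 3 libraries. *Kcne2*, a potassium channel subunit, stood at 9.996, 8.14 and 2.62 CPM, and had 0 counts in WT hippocampus 4. Its median was at the floor in WT hippocampus (0.0655 CPM) and in WT neocortex (0.0681 CPM), where the lowest sample was also at 0. *Slc4a2*, an anion exchanger, had smaller steps, at 70.9, 42.3 and 40.7 CPM, which were 2.21-fold, 1.42-fold and 1.25-fold over the other samples of each group. *Slc13a4*, a sulfate transporter, stood at 26.1 and 23.7 CPM in the high hippocampus libraries, but its 9.53 CPM in miR-324-null neocortex 2 lay below the highest WT neocortex sample, at 13.6 CPM. *Cldn2*, a tight junction protein of leaky epithelia, stood at 14.9, 8.82 and 2.87 CPM. From WT hippocampus 3 to miR-324-null hippocampus 5, *Slc4a5*, *Aqp1*, *Kcne2*, *Slc4a2* and *Cldn2* all fell by a larger factor than *Ttr*. The other members did so too, while *Slc13a4* fell by a smaller factor.

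Secreted proteins and receptors of the list were read in the same way. *Enpp2*, which encodes autotaxin and is also made by oligodendrocytes, stood at 1089, 769 and 540 CPM in the 3 libraries and at 132 to 274 CPM in the other 17. *Sostdc1*, a secreted BMP and Wnt antagonist, stood at 30.6, 18.8 and 6.10 CPM, *Prlr*, the prolactin receptor, at 31.4, 20.5 and 8.82 CPM, and *F5*, coagulation factor V, at 27.3, 18.7 and 8.21 CPM. *Igf2*, which the meninges also make, stood at 219.7 CPM in WT hippocampus 3 and 132.4 in miR-324-null hippocampus 5, but its 59.2 CPM in miR-324-null neocortex 2 lay within the range of the neocortex samples. *Igfbp2*, an IGF-binding protein, stood at 72.7 and 49.8 CPM in the high hippocampus libraries, and its 30.5 CPM in miR-324-null neocortex 2 lay within the WT neocortex range of 26.04 to 33.6.

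**Figure D3:**
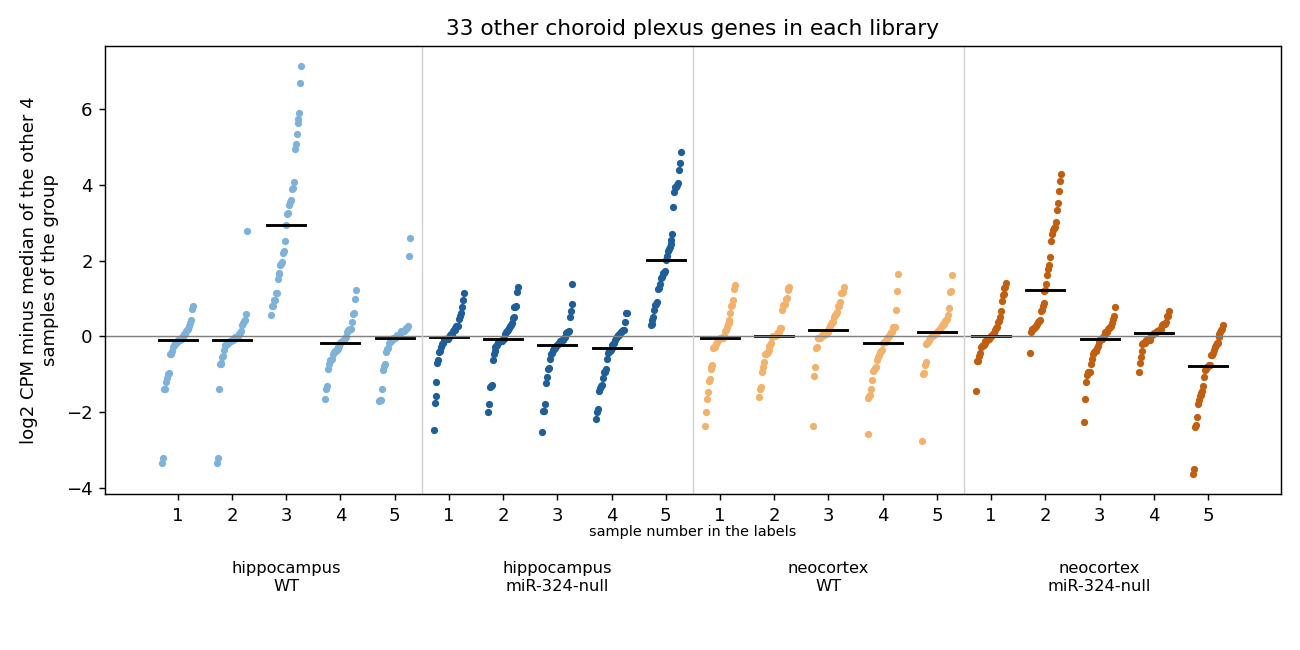
Difference in log2 CPM of 33 further choroid plexus genes in each library from the median of the other 4 samples of its group, with 1 point per gene and a bar at the median of the list. The medians of 2.94 in hippocampus WT 3, 2.02 in hippocampus miR-324-null 5 and 1.23 in neocortex miR-324-null 2 stand above those of the other 17 libraries, and the lowest is -0.78 in neocortex miR-324-null 5.

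Markers of neighbouring tissue were read in the same libraries. Of 10 genes of the ependyma, the ciliated lining of the ventricles, 10 were the highest of their group in WT hippocampus 3, 6 in miR-324-null hippocampus 5 and 7 in miR-324-null neocortex 2, with median differences of 2.20, 0.72 and 0.70 on the log2 scale. Their summed level was 64.9 CPM in WT hippocampus 3 against 13.6 to 25.8 in the other WT hippocampus samples, and 51.4 CPM in miR-324-null hippocampus 5 against 16.2 to 46.0 in the others. In miR-324-null neocortex 2 it was 25.7 CPM against at most 19.4. Of 5 genes of red blood cells, 5 were the highest in WT hippocampus 3 (median difference 1.44) and in miR-324-null neocortex 2 (0.74), and 0 in miR-324-null hippocampus 5 (-0.42). Of 8 genes of the meninges, 5, 6 and 2 were the highest, with median differences of 0.67, 0.64 and 0.14. Of 6 genes of the thalamus 0, 2 and 2 were the highest, and of 8 genes of the striatum 2, 1 and 0. Of all genes tested, 22.2%, 23.4% and 20.4% were the highest in the 3 libraries. None of these genes was at 0 in all samples of a group. The median differences of the ependyma and of the meninges were above 0 in all 3 libraries, and that of the blood genes in 2 of them. Samples in which no member was the highest also had such differences. The blood genes had 1.32 and 1.42 in miR-324-null hippocampus 2 and 3, and the ependyma genes 0.88 in WT hippocampus 2. The meninges genes had 0.81 in WT neocortex 1, above their value in each high library. There 6 of 8 were the highest of the group, as were 26.8% of all genes. The part of these tissues in the levels of the choroid plexus genes was not tested.

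Below the high libraries, samples 1 and 2 of miR-324-null hippocampus had the next highest *Ttr* of that tissue, at 87.5 and 109.9 CPM, and summed ependyma levels of 46.0 and 41.5 CPM against 24.4 and 16.2 in samples 3 and 4. Across the 8 hippocampus samples without the high libraries, deviations of log2 CPM from the group mean correlated with those of *Ttr* at r = 0.79 for *Folr1*, 0.58 for *Otx2*, 0.51 for *Clic6*, 0.38 for *Kl* and -0.69 for *Kcnj13*. Across 9 neocortex samples r was 0.63 for *Kl*, 0.54 for *Clic6*, 0.45 for *Kcnj13*, 0.30 for *Otx2* and 0.26 for *Folr1*. These are descriptions over few samples that share library size and, for *Folr1* and *Kcnj13*, rest on counts of 19 or fewer.

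The 10 genes outside the members whose pattern was most like theirs were taken from 14318 genes, by Pearson r with the mean of the 6 over the 10 hippocampus samples, after subtraction of the group mean of log2 CPM. They were *Col9a3* (r = 0.997), *Slc4a5* (0.993), *Slc2a12* (0.987), *Abca4* (0.980), *1500015O10Rik* (0.980), *Rdh5* (0.978), *Lbp* (0.977), *Perp* (0.974), *Plxnb2* (0.970) and *Enpp2* (0.966). *Col9a3* encodes a chain of type IX collagen, *Slc2a12* a glucose transporter, *Abca4* and *Rdh5* a transporter and a dehydrogenase of retinoids, and *Lbp* the lipopolysaccharide-binding protein. Both high libraries carry these correlations. Without them, over 8 samples, r was 0.91 for *Col9a3*, 0.85 for *Slc4a5*, 0.78 for *Lbp* and 0.75 for *Slc2a12*, but 0.21 for *Abca4*, -0.07 for *Plxnb2* and -0.31 for *Enpp2*. In the 10 neocortex samples, which did not enter the ranking, r ran from 0.23 (*Perp*) to 0.92 (*Slc4a5*). These samples include the high neocortex library. Whether that library carries the neocortex correlations was not tested, since r was not computed without it. Of the 30 further choroid plexus genes that could be ranked, 25 were among the 100 most like.

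The size of the step differed among these genes. *Rdh5* stood at 16.1 CPM in WT hippocampus 3 and 10.2 in miR-324-null hippocampus 5, against 1.67 to 3.29 in the other 8 hippocampus samples, and at 3.58 CPM in miR-324-null neocortex 2 against 1.25 to 2.68. *Lbp* stood at 20.8, 11.6 and 4.59 CPM in the 3 libraries, against 1.38 to 4.34 in the other hippocampus and 0.417 to 1.71 in the other neocortex samples. *Plxnb2*, the receptor plexin B2, has a high level elsewhere in the tissue and stood at 85.5 and 77.1 CPM in the 2 high hippocampus libraries, against 61.8 to 67.0 in the others.

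The effect of the genotype on the 6 genes was then read from fits across all genes. In the hippocampus, 0 of the 6 were DE between miR-324-null and WT mice (edgeR's quasi-likelihood, or QL, test at a Benjamini-Hochberg adjusted p of 0.05), where 0.115% of 14796 genes tested were. The filter on low counts left 5 of the 6, without *Kcnj13*, and 0 of these had an unadjusted p under 0.05. DESeq2 gave a p to 1 of the 6, *Otx2*, and called 0, where 0.831% of 16959 genes were called. The other 5 had a logFC but no p, so this count says nothing about them. The logFC of *Ttr* was -0.17 (standard error, SE, 1.63, adjusted p = 0.983, edgeR), with means of 906 ± 1923 CPM (SD, n = 5) for WT and 807 ± 1662 for null samples. *Clic6* had a logFC of -0.07 (SE 0.89), *Otx2* -0.07 (0.87), *Kl* -0.38 (0.59) and *Folr1* -0.92 (1.199). There was a high library in each group, and each of these differences was smaller than its SE.

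Without the high libraries the hippocampal differences turned for 3 of the members. The mean of *Ttr* was 45.7 ± 27.96 CPM (SD, n = 4) for WT and 64.3 ± 40.9 for null samples, with a logFC of 0.49 (SE 0.50, adjusted p = 0.738, edgeR QL test). That of *Clic6* was 2.56 ± 0.741 and 5.87 ± 2.68 CPM, with a logFC of 1.198 (SE 0.36, adjusted p = 0.300, edgeR), and *Otx2* had 0.63 (SE 0.44). *Kl* stayed at -0.10 (SE 0.10). Then 0 of the 6 were DE, and 0.129% of 14736 genes. The ependyma genes had a median logFC of 1.02 in the same fit, with 10 of 10 above 0 and 0 DE, and their part in the difference of *Clic6* was not tested.

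In the neocortex, 0 of the 6 were DE between genotypes, where 0.315% of 14930 genes were (edgeR QL test). The filter left *Ttr*, *Kl*, *Clic6* and *Otx2*, of which 3 had an unadjusted p under 0.05. *Ttr* had a logFC of 2.94 (SE 0.98, adjusted p = 0.255), *Clic6* 1.55 (SE 0.44, adjusted p = 0.184) and *Kl* 1.54 (SE 0.52, adjusted p = 0.262), all from edgeR's test. The high library is in the miR-324-null group. Without it, the logFC was 0.59 for *Ttr* (SE 0.42), 1.06 for *Clic6* (SE 0.35, adjusted p = 0.292) and 0.65 for *Kl* (SE 0.26, adjusted p = 0.379, edgeR), and 0 of the 6 were DE (0.213% of all genes). *Clic6* alone passed under other settings. DESeq2's Wald test gave an adjusted p of 0.0298 at a logFC of 1.54, with 1.52% of all genes called. When miR-324-null neocortex 5, the sample with the lowest *Clic6* of its group, was left out, edgeR gave an adjusted p of 0.0168 at 1.79, with 3.76% of all genes called, 566 in place of 47.

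The neocortex samples of the null mice also differed in genes of other regions. The 5 hippocampal marker genes summed to 87.4 to 200.3 CPM in miR-324-null neocortex and to 73.2 to 109.7 CPM in WT neocortex, with the highest value in miR-324-null sample 1, which had 7.39 CPM of *Kl*. Genes of the striatum summed to 274 to 771 CPM in miR-324-null and 164 to 449 CPM in WT neocortex. The lowest of both sums in miR-324-null neocortex, 87.4 and 274 CPM, were those of sample 5, without which edgeR called *Clic6*. In the genotype fit, 4 of 4 hippocampal marker genes tested and 8 of 8 striatal genes lay above 0. Of these genes 0 were DE, where 0.315% of all genes were. The part of these hippocampal and striatal genes in the differences of *Kl* and *Clic6* was not tested.

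The further choroid plexus genes gave no call for the genotype either. Of all genes, 0.115% were called in the hippocampus and 0.315% in the neocortex, so the absence of calls says little about the list. In the hippocampus 24 of 33 were tested, with a median logFC of -0.26, and in the neocortex 21 were tested, with a median of 0.24. Over all genes tested the median was 0.0012 and 0.0046. The 2 most abundant of the list, *Enpp2* and *Tmem72*, had logFC of -0.30 (SE 0.68) and -0.28 (SE 0.14) in the hippocampus. Without the high libraries the medians of the list were 0.01 and -0.02.

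**Figure D4:**
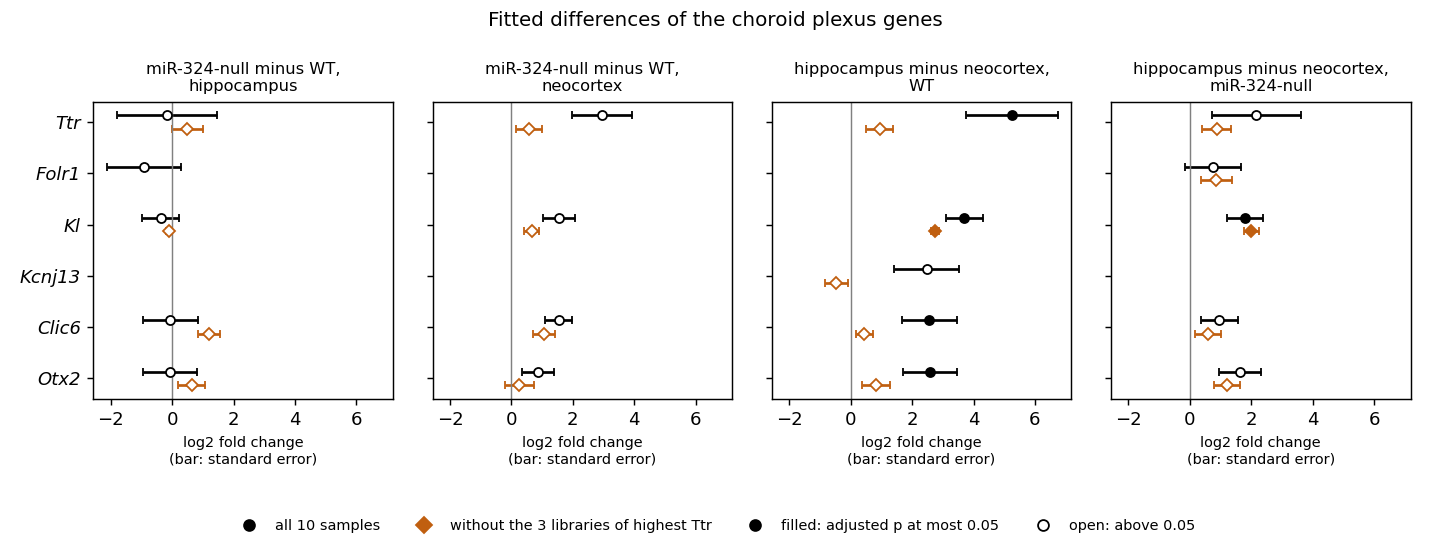
Fitted logFC of the 6 genes with SE (standard error), for the 2 genotype and the 2 tissue comparisons, with all 10 samples (circles) and without the 3 libraries of highest *Ttr* (diamonds); filled symbols have an adjusted p of at most 0.05 in edgeR, and genes that did not pass the filter on low counts have no symbol. In WT mice the value of *Ttr* moves from 5.25 to 0.95, while *Kl* stays filled at 3.70 and 2.74.

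Between tissues of WT mice, 4 of the 6 genes were higher in hippocampus than in neocortex, where 18.1% of 14894 genes were higher in hippocampus and 36.1% DE in either direction (edgeR QL test). *Ttr* had a logFC of 5.25 (SE 1.48, adjusted p = 0.0137), *Kl* 3.70 (SE 0.61, adjusted p = 3.1e-04), *Otx2* 2.58 (SE 0.89, adjusted p = 0.0365) and *Clic6* 2.56 (SE 0.90, adjusted p = 0.0405). *Kcnj13* did not pass, at 2.47 (SE 1.06, adjusted p = 0.0884), and *Folr1* did not pass the filter on low counts. Without that filter, or with all 20 samples in one fit, *Folr1* was also called, at 3.68 (adjusted p = 0.0429) and 3.67 (adjusted p = 0.0411), and with an offset for transcript length *Otx2* was not, at 2.48 (adjusted p = 0.0532, all edgeR). The mean of the WT hippocampus samples rested on sample 3. Without it 1 of the 6 remained, *Kl* at 2.74 (SE 0.13, adjusted p = 8.1e-09, edgeR), and 32.2% of all genes. *Ttr* then had 0.95 (SE 0.45, adjusted p = 0.131), *Otx2* 0.83 (SE 0.46), *Clic6* 0.44 (SE 0.28) and *Kcnj13* -0.46 (SE 0.36), the last with its direction turned. *Kl* was also the only member whose WT groups did not overlap, with a lowest hippocampus sample of 17.1 CPM and a highest neocortex sample of 3.35 CPM. Among all genes tested, 13.7% had every hippocampus sample above every neocortex sample.

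In miR-324-null mice, *Kl* was the only one of the 6 that edgeR called between tissues, with a logFC of 1.79 (SE 0.59, adjusted p = 0.0405, edgeR QL test), where 27.4% of 15033 genes were DE and 13.8% higher in hippocampus. DESeq2's Wald test gave a p to 3 of the 6, not to *Kl*. It called *Otx2* alone, at 1.65 (adjusted p = 0.0466), where 24.8% of 17657 genes were called. *Kl* stood at 28.8 ± 24.4 CPM (SD, n = 5) in hippocampus and 8.25 ± 8.44 CPM in neocortex. Without the high library of each tissue it stood at 17.9 ± 1.49 and 4.55 ± 1.98 CPM (SD, n = 4), a logFC of 2.0003 (SE 0.23, adjusted p = 2.2e-04, edgeR), with 21% of all genes DE. With only the neocortex library left out the logFC of *Kl* was 2.69 (adjusted p = 0.00276) and that of *Otx2* 2.25 (adjusted p = 0.0438), and with only the hippocampus library left out *Kl* had 1.11 (adjusted p = 0.131, all edgeR). *Ttr* went from 4.51 to -1.48 between these 2 fits. The difference between genotypes in the tissue effect was tested as an interaction over all 20 samples. In edgeR 0 of the 6 passed (0.0195% of 15391 genes), with 0 at an unadjusted p under 0.05. DESeq2 gave a p to 2 of the 6 and called 0, with 0.0242% of all genes called. The largest in proportion to its error was *Kl*, at -1.92 (SE 0.94, adjusted p = 0.889, edgeR). Without the high libraries it was -0.74 (SE 0.28, adjusted p = 0.940, edgeR), with 0 of the 6 called and 0.00649% of all genes.

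Of the further choroid plexus genes, 6 of 21 tested were higher in hippocampus in WT mice and 0 lower. Of all genes, 18.1% were higher in hippocampus and 36.1% were called in either direction. The 3 with the largest differences were *Sostdc1* (logFC 3.75, SE 1.01, adjusted p = 0.0102), *F5* (3.18, SE 1.09, adjusted p = 0.0358) and *Prlr* (2.85, SE 0.77, adjusted p = 0.0103), from edgeR's test. Without WT hippocampus 3 the counts were 5 higher and 2 lower, and the median of the list went from 0.69 to 0.01. In miR-324-null mice 4 of 24 were higher and 1 lower, where 13.8% of all genes were higher and 27.4% were called in either direction. The largest differences there were in the keratin gene *Krt18* (1.80), *Calml4* (1.79) and *Car12* (1.54), a carbonic anhydrase. Genes of the ependyma were higher in hippocampus in 1 of 7 tested in WT (*Tekt1*, 1.43) and in 5 of 10 in miR-324-null mice, where 18.1% and 13.8% of all genes were higher, led by *Tmem212* (1.72) and *Cfap126* (1.51).

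Genes for the partners of what the members carry gave the same counts of calls with and without the high libraries. Of 11 genes for the binding, uptake and conversion of retinol, thyroid hormone and folate and for klotho signalling, 9 were tested (edgeR), and 4 were higher and 2 lower in hippocampus in both genotypes, where 36.1% and 27.4% of all genes were called. *Fgfr1*, the receptor that klotho joins, was higher by 1.13 in WT (adjusted p = 1.2e-08) and 0.97 in miR-324-null mice on the log2 scale. *Rbp4*, the retinol-binding protein that transthyretin carries, was lower by logFC of -0.95 and -0.74, and *Stra6*, its receptor, was higher by 0.81 and 0.94. Between genotypes, 0 of the 9 were DE in either tissue, where 0.115% and 0.315% of all genes were. In the 3 high libraries the list had median differences of 0.06, 0.18 and 0.10 on the log2 scale. Genes of the meninges were higher in hippocampus in 3 of 8 in both genotypes (18.1% and 13.8% of all genes), and in 2 of 8 without the high libraries, led by *Dcn* (1.73 in WT and 2.41 in miR-324-null mice), and 0 of 5 blood genes differed.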

How the data were processed

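The authors made stranded libraries of mRNA, ran kallisto against a mouse GRCm38 transcriptome and deposited an estimated count and a TPM for each of 115270 transcripts and sample. The submitters' notes also name GRCh38, but the transcript identifiers are those of mouse. By identifier, 113580 transcripts were matched to GENCODE genes of GRCm38 and 1690 were left out. Estimated counts and TPM were summed over 35580 genes, and the counts rounded.

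Genotypes within each tissue, tissues within each genotype and their interaction were tested over all genes with edgeR 4.0.16 (R 4.3.3): default filter on low counts, TMM, quasi-likelihood test, Benjamini-Hochberg adjustment at 0.05. Standard errors were derived from the log2 fold change and its test statistic. CPM is TMM-scaled, and log2 CPM has a prior count of 0.5. The step was tested on simulated counts. These had the same spread for every gene and no high library, so that check does not cover genes such as the members.

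The members and gene lists were chosen with earlier results of these data known. From lists other than the members, at most the 3 called genes with the largest change, or the 2 most abundant where none was called, are named per comparison, and the 10 genes most like the members. Genes of these lists described by library (*Aqp1*, *Kcne2*, *Cldn2*, *Igf2*, *Igfbp2*, *Slc4a2*, *Slc13a4*) were named after their values were seen, as were the 3 libraries left out. The series text counts 5 mice of each genotype for the hippocampus. For the neocortex no source used here says that samples came from separate mice, so its p values measure only the spread between samples. Depth was 12752439 to 19617765 estimated counts, and 3 counts were taken as the floor. A check of the tissue labels with genes of the neocortex is not reported here.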

Additional observations from a re-analysis of the deposited data

Results flagged for a closer look

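A sample was marked where its gap to the nearest other sample of its group of 5, divided by the range of the group, was above Dixon's 95% critical value. The 6 choroid plexus genes and the 10 genes most like them were read in 4 groups, 64 readings in all, and 43 were marked. In values not chosen for their pattern chance marks about 1 in 20, but the members were chosen with these levels known and the 10 genes for following them, so the marks are a description and not a test.

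In WT hippocampus 3 the marked levels of the members were 4346 CPM for *Ttr*, 20.4 for *Folr1*, 110.5 for *Kl*, 19.5 for *Kcnj13*, 45.3 for *Clic6* and 13.5 for *Otx2*. Those of the 10 like them were 45.1 for *Col9a3*, 26.5 for *Slc4a5*, 18.5 for *Slc2a12*, 17.1 for *Abca4*, 31.8 for *1500015O10Rik*, 16.1 for *Rdh5*, 20.8 for *Lbp*, 7.38 for *Perp*, 85.5 for *Plxnb2* and 1089 for *Enpp2*. In miR-324-null hippocampus 5 they were 3780 CPM for *Ttr*, 7.93 for *Folr1*, 72.3 for *Kl*, 15.3 for *Kcnj13*, 29.7 for *Clic6* and 10.3 for *Otx2*. The 10 like them stood there at 33.5 for *Col9a3*, 9.76 for *Slc4a5*, 10.6 for *Slc2a12*, 7.32 for *Abca4*, 25.4 for *1500015O10Rik*, 10.2 for *Rdh5*, 11.6 for *Lbp*, 7.32 for *Perp*, 77.1 for *Plxnb2* and 769 for *Enpp2*.

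In miR-324-null neocortex 2 the marked levels were 757 CPM for *Ttr*, 4.69 for *Folr1*, 23.0 for *Kl*, 2.62 for *Kcnj13* and 2.47 for *Otx2*. Its 11.5 CPM of *Clic6* was the highest of the group but not marked. Of the 10 like them, *Slc4a5* (6.00 CPM), *Slc2a12* (6.20), *1500015O10Rik* (8.06), *Lbp* (4.59) and *Enpp2* (540) were marked. The remaining mark was *Slc2a12* in WT neocortex 1, at 3.34 CPM. No member was marked in WT neocortex.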

How the results depend on the processing

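Counts of the 6 members called DE between genotypes in the hippocampus, and in the interaction, were 0 under every setting tried. Of all genes, these settings called 0.0270% to 0.831% for the genotype in the hippocampus and 0% to 0.129% for the interaction. Leaving out samples in turn gave 0 to 1 for the genotype in the neocortex (1, *Clic6*, without miR-324-null 5), 1 to 4 for the tissues in WT (1 without hippocampus WT 3, 2 without neocortex WT 1, 2, 4 or 5) and 0 to 2 in miR-324-null mice (0 without hippocampus 5 or neocortex 1, 3, 4 or 5, and 2 without hippocampus 4 or neocortex 2). DESeq2 called 1 for the genotype in the neocortex and 0 for the tissues in WT, where it gave no p to any of the 6. In miR-324-null mice it called 1, *Otx2* in place of *Kl*. Of all genes, DESeq2 called 1.52%, 29.8% and 24.8% in these comparisons. Without the libraries of highest *Ttr*, 1 was called for the tissues in WT, with 32.2% of all genes called. Deviations of same-numbered hippocampus and neocortex samples correlated at r from -0.09 to 0.11 in WT (above 0 in 4 of 5) and 0.02 to 0.19 in miR-324-null mice (5 of 5), with 3 of 5 best matched to their own number in each, a hint from the data; between genotypes r was -0.19 to 0.17. Since r was above 0.1 in at most 3 of 5, the numbers were not taken to pair samples, and whether they share a mouse is not known. Without the filter on low counts or with all 20 samples in one fit, 5 were called for the tissues in WT. Of all genes, 22.1% and 33.5% were called there. With a transcript-length offset 3 were called, with 29.1% of all genes called. With the replicate number as a block, 2 were called for the tissues in WT (33.9% of all genes) and 0 in miR-324-null mice (26.9%). The hippocampal genotype difference then turned to 0.64 for *Ttr*, 0.60 for *Folr1*, 0.71 for *Clic6* and 0.40 for *Otx2*.

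With 1 sample left out, the hippocampal genotype difference ran from -3.81 to 4.14 for *Ttr*, -1.06 to 0.59 for *Kl*, -0.92 to 2.06 for *Clic6* and -1.12 to 1.68 for *Otx2*, with the lowest without miR-324-null 5 and the highest without WT 3. The tissue difference ran from -0.46 to 2.78 for *Kcnj13* in WT, and from -1.48 to 4.51 for *Ttr* and -0.66 to 2.28 for *Folr1* in miR-324-null mice. The interaction ran from -6.75 to 1.199 for *Ttr*, -4.34 to 0.96 for *Folr1*, -3.88 to 2.25 for *Kcnj13*, -2.46 to 0.51 for *Clic6* and -1.98 to 0.81 for *Otx2*. Without the libraries of highest *Ttr*, the hippocampal genotype difference turned to 0.49 for *Ttr*, 1.198 for *Clic6* and 0.63 for *Otx2*, the tissue difference of *Kcnj13* in WT to -0.46, and the interaction to 1.07 for *Folr1*, 0.15 for *Clic6* and 0.37 for *Otx2*. Beyond the samples left out, the cause of these changes was not tested. The ratio of the highest to the lowest of the 20 libraries moved by less than the spread between replicates with TPM or with CPM without TMM. That is a weak check, since the spread is wide where a high library is present (SD of log2 CPM 3.14 for *Ttr* in WT hippocampus). The highest sample of each group was the same in TPM as in CPM for every member. The order of the other samples could differ, with a rank correlation of 0.4 for *Kcnj13* in WT neocortex. Counts of 3 or fewer limit *Folr1*, *Kcnj13* and *Otx2*, and the fits could not include *Kcnj13* or *Folr1* in every comparison.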
